A study of Mus musculus with 6 samples.

Results

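Hedgehog signalling was followed through 9 genes in neural progenitors made from mouse embryonic stem cells (mESCs): the ligand Shh, the receptor Ptch1, the ligand-binding inhibitor Hhip, the co-receptors Gas1 and Boc, the transducer Smo and the transcription factors Gli1, Gli2 and Gli3. They were chosen by name as core components of the pathway, and each was found once among the 48526 gene identifiers of the count table by its GENCODE M21 symbol. All 9 passed the filter on low counts and were among the 20549 genes tested. None lies on chromosome 11, whose genes were shifted upward as a whole.

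Hedgehog ligands are secreted proteins that bind Ptch1, which otherwise holds the membrane protein Smo inactive. Released Smo acts in the primary cilium to stop the trimming of Gli2 and Gli3 into repressors and lets Gli activators enter the nucleus, where Ptch1, Hhip and Gli1 are among the genes they switch on. Gas1, Boc and the related Cdon help Shh to bind Ptch1. In the embryonic brain Shh is made along the ventral midline and sets ventral identities, and Gli3 in its repressor form is needed for the dorsal telencephalon.

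The series holds 6 RNA sequencing libraries of cells collected on day 8, 3 per genotype. The control line was flox/flox, carrying recombinase sites around part of Dmrta2, a transcription factor gene, and the other was labelled -/- at that gene. Both genotypes received the same medium, with the BMP receptor inhibitor LDN193189 (100 nM) and the activin and TGF-beta receptor inhibitor SB431542 (10 µM) until day 4, XAV939 (1 µM), which blocks Wnt signalling, until day 6, and cyclopamine (1 µM) from day 2 to day 10. Cyclopamine is a plant alkaloid that binds Smo and blocks it, so every value below was measured under a Smo inhibitor, and no library without it was compared. Each genotype is represented by replicates of 1 line, so genotype and line cannot be told apart, and p-values measure the spread between samples of a line.

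Total counts per library lay between 24565560 and 39646793, and libraries are named by genotype and the letter of their column. Dmrta2 itself was higher in the libraries labelled -/- (421 ± 16.1 CPM against 79.9 ± 5.09, SD, n = 3, where CPM is the read count scaled to library size by TMM), which goes against the label. The labels do not say which part of the gene was deleted, so a count over the whole gene does not check the deletion, and directions below are those of the libraries labelled -/- against flox/flox. The progenitor marker Sox2 was at 235 ± 3.79 CPM in flox/flox and 181 ± 4.13 CPM in -/- (SD, n = 3), and of 7 progenitor markers 4 rose and 3 fell, Sox2 among them. Values given in threes are those of libraries A, B and C in that order. The summed level of 8 neuron markers was 1188, 1526 and 2098 CPM in flox/flox and 2486, 2752 and 4181 CPM in -/-, and 7 of the 8 rose. The 4 markers of pluripotent cells summed to 91.3, 85.7 and 92.5 CPM in flox/flox and 74.4, 71.7 and 54.5 CPM in -/-, and 2 of the 4 fell. Over all genes tested 17.9% rose and 17.4% fell. Because these are bulk samples, fewer cells of a type and less RNA per cell cannot be told apart. Of 1589 tested genes on chromosome 11, 947 rose, and their median log2 fold change stood 0.52 above that of the other chromosomes.

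Of the 9 genes, 4 rose (Shh, Ptch1, Hhip and Gli1) and 2 fell (Gas1 and Gli2) in the libraries labelled -/-, by edgeR's quasi-likelihood test at an adjusted p under 0.05. Over all genes tested 35.3% passed, 17.9% higher and 17.4% lower, so a call alone is common in this comparison. In 7 of the 9 genes every library of a group lay on the same side of the other group, as was the case for 51.0% of all genes tested. The median absolute log2 fold change of the 9 was 0.74, beside 0.26 over all genes tested. By p-value Shh ranked 18 among the 20549 genes tested, Gas1 ranked 122 and Ptch1 155.

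**Figure D1:**
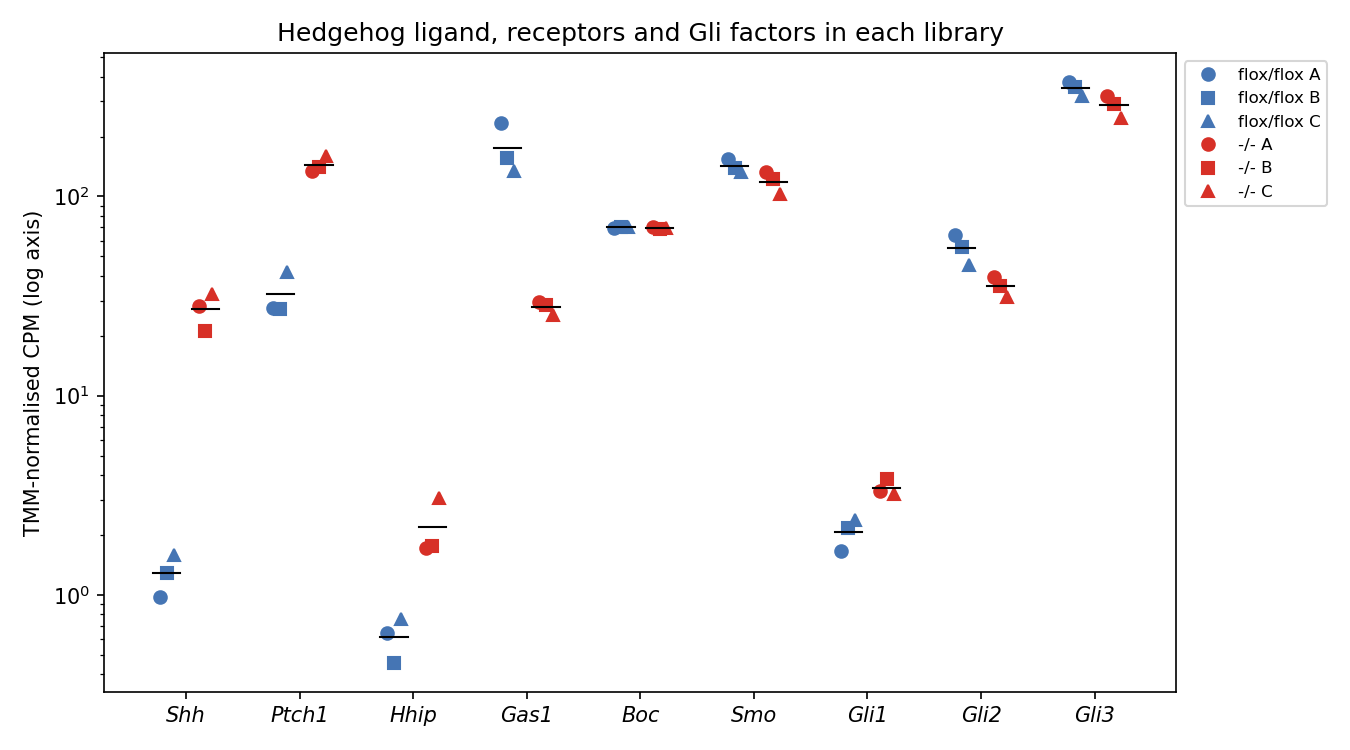
TMM-normalised CPM (log axis) of the 9 genes in each library, with flox/flox in blue, libraries labelled -/- in red, 1 symbol per column letter and a black bar at each group mean. Shh, Ptch1, Hhip and Gli1 are higher in all 3 libraries labelled -/-, Gas1, Gli2 and Smo are lower in all 3, the groups overlap for Boc and Gli3, and distances between genes are not comparable because CPM is not divided by gene length.

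Start-site sequences are shown for the genes with the strongest changes that have an entry in the RefSeq promoter table on GRCm38.p6 (6 of the 9 matched, all but Shh, Boc and Gli1), because Gli proteins bind a known motif and Ptch1 and Hhip are known direct targets. The 250 bases before the start are given 5′ to 3′ on the gene's own strand for Ptch1 (chr13:63565736-63565985, minus strand), Hhip (chr8:80058009-80058258, minus strand) and Gas1 (chr13:60177536-60177785, minus strand). Capitals mark the core CCACCC of the Gli motif on either strand.
Ptch1: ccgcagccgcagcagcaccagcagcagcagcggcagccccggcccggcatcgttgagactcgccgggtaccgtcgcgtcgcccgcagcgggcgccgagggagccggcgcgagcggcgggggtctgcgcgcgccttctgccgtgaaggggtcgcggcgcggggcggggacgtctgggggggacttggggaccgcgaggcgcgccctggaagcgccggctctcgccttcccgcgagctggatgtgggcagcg
Hhip: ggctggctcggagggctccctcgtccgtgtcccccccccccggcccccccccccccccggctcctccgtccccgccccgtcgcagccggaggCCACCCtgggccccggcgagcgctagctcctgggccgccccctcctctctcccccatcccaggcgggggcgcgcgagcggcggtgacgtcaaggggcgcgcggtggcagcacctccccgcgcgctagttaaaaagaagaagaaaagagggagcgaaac
Gas1: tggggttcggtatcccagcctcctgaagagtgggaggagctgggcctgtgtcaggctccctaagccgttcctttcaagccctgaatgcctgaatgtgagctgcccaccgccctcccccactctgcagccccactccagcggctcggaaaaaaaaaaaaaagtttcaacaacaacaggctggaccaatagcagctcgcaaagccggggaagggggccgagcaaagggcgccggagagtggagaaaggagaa
The full motif GACCACCCA, searched on both strands and containing the core, was in none of the 6 windows and in 0.225% of the 32851 windows of this length in the table. The core was in 28.1% of all windows and in 4 of these 6. Hhip, which rose, held it once, 158 bases before the start. The windows of Smo and Gli3 held it once each, 162 and 170 bases before the start, and Gli2 held it in 2 places, 192 bases before the start on the gene's strand and 205 bases before it on the other. Ptch1, with a larger rise than Hhip, and Gas1, which fell, held no copy in these bases. The windows of Ptch1 and Gli3 lie inside the GENCODE spans of these genes, so they do not precede the most distal annotated starts.

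The ligand Shh (ENSMUSG00000002633, GRCm38 chromosome 5, 28456815 to 28467256, minus strand) was scarce in the controls and rose in the libraries labelled -/-. Its counts were 29, 34 and 40 reads in flox/flox and 1114, 745 and 921 reads in -/-, or 0.980, 1.29 and 1.59 CPM against 28.3, 21.1 and 32.4 CPM. The groups lay far apart, and the lowest library labelled -/- was above the highest control. Shh rose 21.3-fold, by 4.41 ± 0.23 on the log2 scale (SE; adjusted p = 0.00014, edgeR). Leaving out any library moved this value between 4.24 and 4.60.

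Of the 2847 exonic bases of Shh, 28.3% lie under exons of genes on the opposite strand, 9530036O11Rik (15.7%) and the lincRNA Gm26894 (12.7%), both named here only for that overlap. They rose with it, by 4.20 ± 0.28 (0.227 ± 0.0918 to 4.17 ± 0.569 CPM, SD, n = 3) and 4.25 ± 0.25 (0.314 ± 0.101 to 5.95 ± 0.839 CPM), with adjusted p of 0.00032 and 0.000215 (edgeR). The strand setting of the counting is not given in the sources used here, so reads of the 3 genes may be shared. Per exonic length, Shh stood above both in every library labelled -/-, at 9.58 ± 2.01 RPKM (CPM per kilobase of exon) against 5.25 ± 0.740 for Gm26894 and 1.14 ± 0.155 for 9530036O11Rik. In -/- B all 3 were at their lowest among the libraries labelled -/-.

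**Figure D2:**
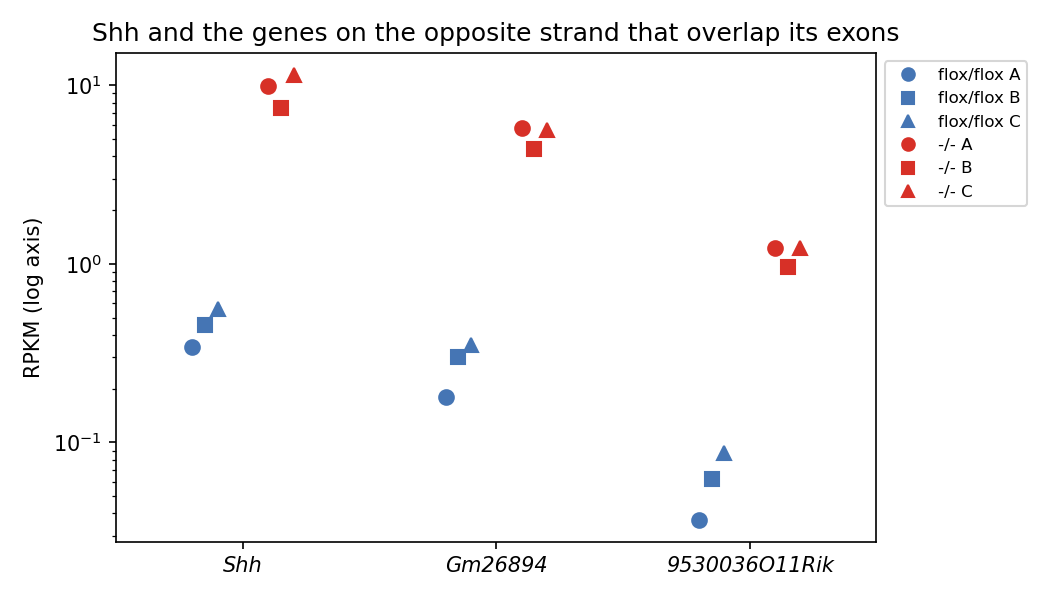
RPKM (log axis) of Shh and of the genes Gm26894 and 9530036O11Rik, which overlap its exons on the opposite strand, in each of the 6 libraries. All 3 genes are higher in every library labelled -/- than in any flox/flox library, and each is at its lowest among the libraries labelled -/- in -/- B.

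The other Hedgehog ligands were scarce. Ihh, the ligand best known from cartilage and gut, was at 0.608, 0.532 and 0.478 CPM in flox/flox and at 3.23, 3.18 and 1.06 CPM in -/-, a rise of 2.21 ± 0.45 (adjusted p = 0.00855, edgeR). The endoderm factor Sox17 was likewise lowest in -/- C among the libraries labelled -/-, with 11.5, 15.3 and 6.58 CPM in -/- against 2.91, 1.10 and 1.35 CPM, and the part of endoderm-like RNA in the Ihh value was not tested. The summed level of the 6 endoderm markers was between 7.86 and 20.3 CPM in flox/flox and between 15.2 and 31.9 CPM in -/-, 2 of the 5 tested rose, and none was at 0 in all libraries. That share was 40%, where 17.9% of all genes tested rose. The 2 were Sox17 and Gata6. The Gata6 call was lost without flox/flox B, flox/flox C, -/- A or -/- B (adjusted p between 0.0797 and 0.104, edgeR). It was also lost with limma-voom (adjusted p = 0.0643). The 3 that did not pass were Gata4, Cer1 and Ttr, with log2 differences of 0.77, -0.67 and -2.28. Dhh, the ligand of Schwann and Sertoli cells, counted at most 23 reads in a library and rose 1.93-fold (adjusted p = 0.0414, edgeR), a call that was lost when any single library was left out (0.0649 to 0.130), with DESeq2 (0.154), with no filter on low counts (0.0668) and with libraries blocked by column letter (0.0521). Of its exonic bases 25.2% lie under exons of other genes, among them Rhebl1 on the same strand (12.4%). Of the 8 genes of ligands and their release, 3 rose, these ligands, and 0 fell, a share (37.5%) near the 35.3% of all genes tested. None of the 5 genes for ligand acylation and release (Hhat, Disp1, Scube1, Scube2 and Scube3) passed.

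At the membrane the receptor Ptch1 and the inhibitor Hhip rose, the co-receptors Gas1 and Cdon fell, and the co-receptor Boc did not pass. Ptch1 (ENSMUSG00000021466, chromosome 13, 63508328 to 63573598, minus strand), at once the Shh receptor, the brake on Smo and a target gene, was at 27.6, 27.2 and 41.9 CPM in flox/flox and at 134, 140 and 160 CPM in -/-. The groups did not overlap, and flox/flox C was the highest of the controls. The rise was 2.17 ± 0.17 (log2, SE), 4.49-fold, with an adjusted p of 0.00038 (edgeR). Hhip (ENSMUSG00000064325, chromosome 8, 79965851 to 80058006, minus strand), a membrane decoy that binds the ligand and is also a target gene, was scarce, with 19, 12 and 19 reads in the controls and 68, 62 and 87 reads in -/-. In CPM this was 0.642, 0.456 and 0.757 against 1.73, 1.76 and 3.06, a rise of 1.80 ± 0.32 or 3.48-fold (adjusted p = 0.00489, edgeR). -/- C was the highest, and the rise without it was 1.50 (log2). In both groups Shh, Ptch1 and Hhip were highest in library C, as were the summed neuron markers. Gli1 was highest in C in flox/flox but lowest in C in -/-. The part of neuron content in the values of these genes was not tested.

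Gas1 (ENSMUSG00000052957, chromosome 13, 60174405 to 60177365, minus strand), a lipid-anchored co-receptor that Hedgehog signalling is known to repress in the neural tube, fell. It was at 233, 156 and 134 CPM in flox/flox and at 29.4, 28.5 and 25.4 CPM in -/-. Controls differed more among themselves than the libraries labelled -/- did, yet the groups did not overlap. The fall was -2.65 ± 0.20 (log2, SE), 6.27-fold, with an adjusted p of 0.000342 (edgeR), and -2.38 without flox/flox A, its highest library. Of its exonic bases 19.9% lie under the antisense lincRNA Gm48488, which is not among the gene identifiers counted.

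Boc (ENSMUSG00000022687, chromosome 16, 44485049 to 44558897, minus strand), an immunoglobulin-family co-receptor, did not pass. It was at 69.2, 70.5 and 70.4 CPM in flox/flox and at 70.4, 68.6 and 69.6 CPM in -/-, so the groups overlapped and no library stood apart. The log2 difference was -0.01 with a 95% interval from -0.13 to 0.11 (adjusted p = 0.888, edgeR). Its close relative Cdon, from the list of reception genes, fell 4.20-fold, from 205, 139 and 99.2 CPM in flox/flox to 41.0, 35.7 and 28.8 CPM in -/- (adjusted p = 0.00129, edgeR).

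Per exonic length the 3 co-receptors together stood at 121, 86.5 and 74.0 RPKM in flox/flox and at 31.1, 29.7 and 27.9 RPKM in -/-. Gas1 made up 62.4% ± 2.37 of that sum in the controls and 31.7% ± 0.910 in the libraries labelled -/-, Cdon 20.1% ± 2.42 and 15.4% ± 1.89, and Boc 17.5% ± 4.30 and 52.9% ± 2.65 (SD, n = 3). Gas1 was thus the most abundant co-receptor transcript in each control, and Boc in each library labelled -/-.

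**Figure D3:**
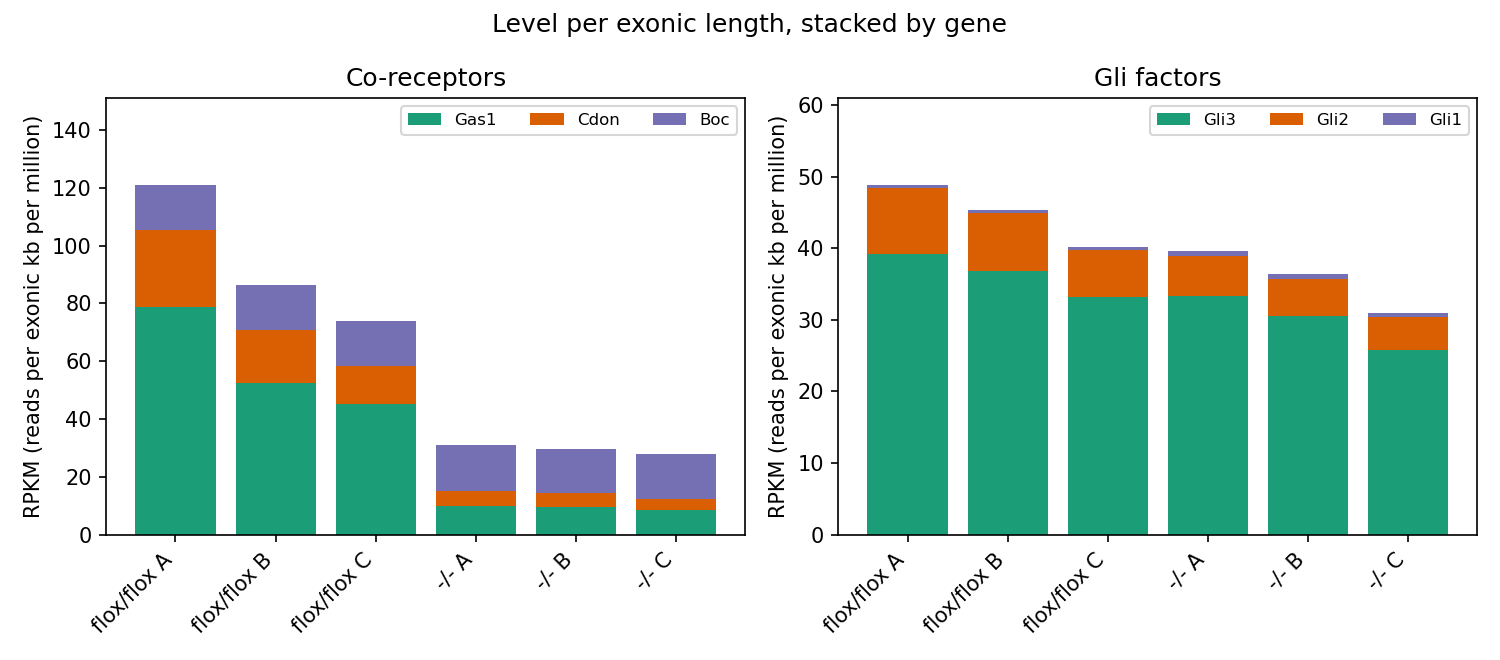
Stacked bars of RPKM per library for the co-receptors Gas1, Cdon and Boc (left) and the Gli factors (right), each bar starting at 0. The co-receptor total is between 74.0 and 121 RPKM in flox/flox and between 27.9 and 31.1 RPKM in -/-, with the Boc segment at nearly the same height throughout, and Gli3 is the largest segment of every Gli bar.

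In the list of 13 reception genes, which contains Ptch1, Hhip, Smo, Gas1 and Boc, 2 rose and 6 fell, with a median log2 fold change of -0.26 (-0.0025 over all genes tested). Of the list 61.5% passed, beside 35.3% of all genes tested, of which 17.9% were higher and 17.4% lower. The 2 that rose were Ptch1 and Hhip. The falls beside Gas1 and Cdon were Lrp2 (-1.99 ± 0.29), the endocytic receptor megalin that binds Shh in the forebrain, and the heparan sulfate proteoglycan genes Gpc6 (-1.16 ± 0.15), Gpc4 (-1.32) and Gpc3 (-1.37), the last pair added to complete the count. Lrp2 was at 456, 430 and 267 CPM in flox/flox and at 132, 94.5 and 63.7 CPM in -/-. Within each group Gas1, Cdon and Lrp2 were highest in library A and lowest in library C, where the summed neuron markers ran the other way, and the part of neuron content in these values was not tested.

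Smo (ENSMUSG00000001761, chromosome 6, 29735503 to 29761365, plus strand), the transducer that cyclopamine binds, was lower in each library labelled -/- by a small margin and did not pass. It measured 155, 139 and 132.2 CPM in flox/flox and 132.0, 122 and 103 CPM in -/-. -/- A and flox/flox C were nearly equal. The log2 difference was -0.26 ± 0.10 (95% interval -0.50 to -0.02, adjusted p = 0.0894, edgeR). With a block by column letter, a pairing that the labels do not give, the value was -0.26 and passed (adjusted p = 0.00816, edgeR).

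The Gli factors split as well. Gli1 (ENSMUSG00000025407, chromosome 10, 127329882 to 127341974, minus strand), an activator whose gene is itself a Hedgehog target, was scarce at 1.66, 2.17 and 2.39 CPM in flox/flox and 3.33, 3.80 and 3.20 CPM in -/-. The groups did not overlap, and the rise was 0.74 ± 0.18 (log2, SE), 1.67-fold, with an adjusted p of 0.0163 (edgeR). The call was lost without flox/flox B (adjusted p = 0.0517, edgeR) and without -/- B (0.0641, edgeR), with values of 0.78 and 0.67, and over all alternatives the adjusted p lay between 0.00729 and 0.0641. Of its exonic bases 6.55% lie under exons of opposite-strand genes, of which Gm47200 (5.31%) is not among the gene identifiers counted.

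Gli2 (ENSMUSG00000048402, chromosome 1, 118834132 to 119053619, minus strand), the main activator downstream of Smo, fell from 64.1, 55.7 and 45.3 CPM in flox/flox to 39.3, 35.5 and 31.4 CPM in -/-. The groups did not overlap, and the spread within the controls was wide. The change was -0.63 ± 0.14 (log2, SE), a 1.55-fold fall, with an adjusted p of 0.0105 (edgeR). Gli3 (ENSMUSG00000021318, chromosome 13, 15463235 to 15730026, plus strand), the main repressor, had 375, 353 and 318 CPM in flox/flox and 319, 293 and 247 CPM in -/-. The groups overlapped by a single pair, flox/flox C and -/- A. Its log2 difference of -0.28 ± 0.10 (95% interval -0.53 to -0.04) did not pass (adjusted p = 0.0695, edgeR), whereas with a block by column letter it was -0.29 and passed (adjusted p = 0.00384, edgeR), which together with Smo brought the number of the 9 genes that fell from 2 to 4. The same block raised the share of all tested genes past the threshold to 41.5%, with 21.2% higher and 20.3% lower. The number was also 4 without -/- A, where Smo was at -0.34 (adjusted p = 0.0499, edgeR) and Gli3 at -0.37 (0.0388, edgeR). Within each group Gli2, Gli3 and Smo were highest in library A and lowest in C, the reverse of the summed neuron markers, whose part in these values was not tested.

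Per exonic length Gli3 made up 81.3% ± 1.11 of the summed Gli level in the controls and 83.6% ± 0.372 in the libraries labelled -/-, Gli2 17.8% ± 1.37 and 14.5% ± 0.280, and Gli1 0.942% ± 0.256 and 1.95% ± 0.229 (SD, n = 3). The ratio of Gli1 to Gli3 in RPKM was 0.00847, 0.0118 and 0.0144 in flox/flox and 0.0200, 0.0249 and 0.0249 in -/-. The ratio of Gli1 to Gli2 was 0.0355, 0.0535 and 0.0726 against 0.117, 0.147 and 0.140, and that of Ptch1 to Smo was 0.0706, 0.0773 and 0.126 against 0.401, 0.456 and 0.617. All 3 ratios were higher in each library labelled -/-, by 1.04, 1.37 and 2.45 on the log2 scale. The exact permutation test, two-sided, gave p = 0.1 for each, the smallest value that 3 libraries against 3 can reach, so these ratios could not pass at 0.05, raw or adjusted. Ptch1 and Gli1, both target genes, had fitted rises of 4.49-fold and 1.67-fold. Their ratio was 5.87, 4.42 and 6.17 in flox/flox and 14.1, 13.0 and 17.6 in -/-, a comparison chosen after the values were seen, with the same exact permutation p of 0.1.

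The order of the 9 genes by RPKM changed between the groups. In flox/flox Gas1 was highest (58.9 ± 17.6), followed by Gli3 (36.4 ± 3.02), Smo (25.3 ± 2.07), Boc (15.7 ± 0.160), Gli2 (8.01 ± 1.37) and Ptch1 (2.27 ± 0.592), with no overlap between neighbours. Shh (0.453 ± 0.108) and Gli1 (0.414 ± 0.0754) overlapped below them, and Hhip was lowest (0.0681 ± 0.0167). In the libraries labelled -/- the order was Gli3 (29.9 ± 3.78), Smo (21.1 ± 2.65) and Boc (15.6 ± 0.208), and below them Ptch1 (10.2 ± 0.961), Shh (9.58 ± 2.01) and Gas1 (9.38 ± 0.710), whose ranges overlapped. Gli2 (5.16 ± 0.573), Gli1 (0.689 ± 0.0630) and Hhip (0.240 ± 0.0839) closed the order without overlap (all SD, n = 3). Ranks and ratios between genes depend on the length used, the union of annotated exons, from 2847 bases for Shh to 14185 for Ptch1. Overlap with other genes, 28.3% of exonic bases for Shh and 19.9% for Gas1, limits them as well.

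**Figure D4:**
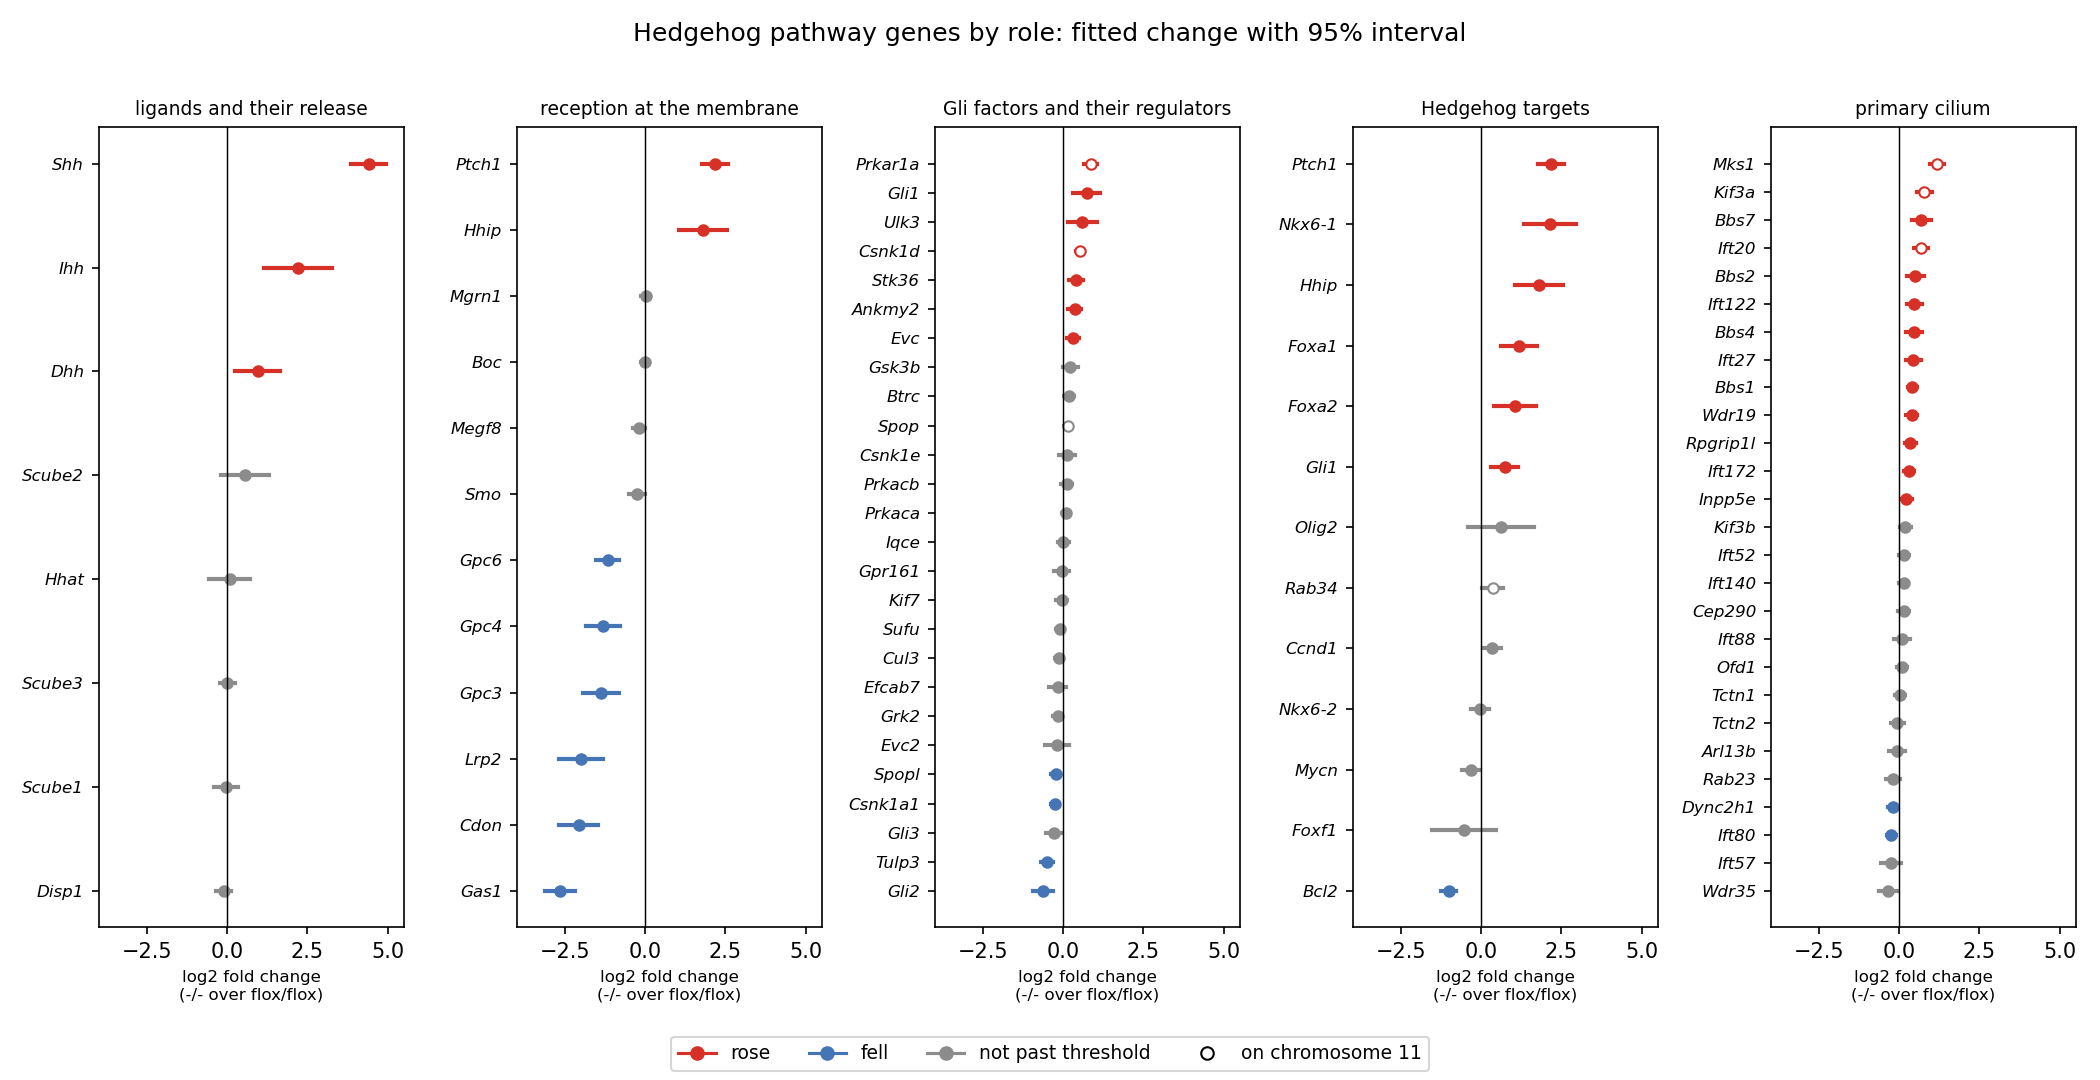
Fitted log2 fold change (-/- over flox/flox) of Hedgehog pathway genes in 5 lists by role, with 95% intervals from the edgeR fit. Genes that rose are red, genes that fell blue and those past no threshold grey, and open points lie on chromosome 11. Shh at 4.41 is the largest rise and Gas1 at -2.65 the largest fall among the plotted genes, and most Gli regulators and cilium genes lie within 1 log2 unit of 0.

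Between Smo and the Gli factors lie kinases, scaffolds and ubiquitin ligases, whose fitted changes all lay within 1 log2 unit of 0. In this list of 26 genes, Gli factors included, 7 rose, 4 fell and 15 did not pass, with a median log2 fold change of 0.05. Off chromosome 11, 5 rose and 4 fell of 23, and the median was -0.04. The share past the threshold was 42.3%, beside 35.3% of all genes tested. With a block by column letter 9 rose and 6 fell, 57.7% of the list beside 41.5% of all genes. Prkar1a, a regulatory subunit of protein kinase A, rose 1.81-fold and the casein kinase gene Csnk1d 1.44-fold, both on chromosome 11. Tulp3, which carries receptors into cilia and restrains the pathway, fell 1.42-fold, the casein kinase gene Csnk1a1 1.19-fold and Spopl 1.18-fold. Stk36 and Ankmy2 rose 1.32-fold and 1.28-fold. Sufu, the main inhibitor that holds Gli proteins in the cytoplasm (added), was at 91.1 ± 2.32 and 85.1 ± 1.04 CPM (SD, n = 3) and did not pass (log2 difference -0.10, 95% interval -0.22 to 0.02). Without flox/flox B only 2 genes of this list rose and 2 fell, and without -/- B 4 rose and 2 fell. The number of all genes past the threshold also dropped there, from 7250 to 4717 without flox/flox B and to 5019 without -/- B.

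Genes of the primary cilium, the antenna in which Smo and Gli proteins act, rose in 13 of 27 and fell in 2, with a median log2 fold change of 0.19. Of the list 55.6% passed, beside 35.3% of all genes tested. Off chromosome 11, 10 of 24 rose, with a median of 0.15, where 14.4% of all genes tested off that chromosome rose. The rises with the smallest adjusted p were on chromosome 11, in Mks1 (2.25-fold), the kinesin gene Kif3a (1.72-fold) and the transport gene Ift20 (1.60-fold), followed by Bbs1 (1.33-fold) on chromosome 19. The falls, in Ift80 and the ciliary dynein gene Dync2h1, were 1.18-fold and 1.15-fold. Their number was 0 without flox/flox A, flox/flox B or -/- B, 1 without -/- A, and 4 without flox/flox C and with a block by column letter. Leaving out 1 library also lowered the number of all genes that fell, from 3571 to between 2342 and 3336.

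Of 18 listed Hedgehog targets 14 were tested, of which 6 rose and 1 fell, with a median log2 fold change of 0.49. The share past the threshold was 50%, beside 35.3% of all genes tested. Beside Ptch1, Hhip and Gli1 the rises were in Nkx6-1, a homeobox gene of ventral progenitors (2.15 ± 0.35, adjusted p = 0.00323, edgeR), and in the ventral midline factors Foxa1 (1.18 ± 0.24) and Foxa2 (added, 1.05 ± 0.28). Nkx6-1 was at 0.777, 1.71 and 1.20 CPM in flox/flox and at 4.50, 4.17 and 7.74 CPM in -/-. The call for Foxa2 was lost without flox/flox B (adjusted p = 0.0510, edgeR), -/- A (0.0667, edgeR) or -/- B (0.0631, edgeR). Bcl2, an inhibitor of cell death, fell 2.02-fold. With a block by column letter 8 targets rose and 2 fell, 71.4% of those tested beside 41.5% of all genes tested. Olig2 (added), a target of ventral progenitors, was at 2.73 ± 1.58 and 4.17 ± 0.687 CPM (SD, n = 3) and did not pass (adjusted p = 0.312, edgeR). The genes with too few reads to be tested were Foxl1, Nkx2-1, Nkx2-2 and Nkx2-9, at most 0.528 CPM in any library. Nkx2-1 and Nkx2-2, which need high Hedgehog signalling, had 3 and 38 reads over all 6 libraries. Nkx2-2 had 1, 2 and 5 reads in flox/flox and 3, 12 and 15 in -/-, while Nkx2-9 had 12, 5 and 9 against 9, 3 and 4.

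Genes known to be repressed by Hedgehog signalling in the neural tube moved in both directions. Of 8 tested, 3 fell, Gas1, Cdon and Pax7, and Pax6 rose 1.50-fold, from 108 ± 8.96 to 162 ± 0.381 CPM (SD, n = 3). The share past the threshold was 50%, beside 35.3% of all genes tested, of which 17.9% were higher and 17.4% lower. Pax7 fell 1.68-fold (adjusted p = 0.0198, edgeR), and its call was lost without flox/flox A, flox/flox B, -/- A or -/- B (adjusted p between 0.0601 and 0.0769, edgeR). Dbx1 (added) averaged 16.5 ± 8.17 against 32.1 ± 4.61 CPM and did not pass (adjusted p = 0.0755, edgeR), but passed without flox/flox C, without flox/flox A, with limma-voom, with no filter and with a block by column letter (0.00868, edgeR), so that 2 genes of the list rose there.

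Markers of tissues that make Shh or its relatives were set beside the ligand. Of 7 tested floor plate markers, 5 rose and 1 fell, with Spon1 up 7.72-fold (1.50 ± 0.544 to 11.6 ± 2.24 CPM, SD, n = 3), Ntn1 on chromosome 11 up 3.84-fold and Sulf1 down 11.5-fold. Of these 7 genes 85.7% passed, beside 35.3% of all genes tested. Sulf1 dominated the summed level of this list, which was between 389 and 925 CPM in flox/flox and between 197 and 227 CPM in -/-. Ferd3l, the floor plate marker with too few reads to be tested, had 0 reads in the controls and at most 0.176 CPM in a library labelled -/-. The 6 notochord and mesoderm markers summed to between 37.5 and 50.6 CPM in flox/flox and between 22.0 and 35.7 CPM in -/-, where 0 of 4 tested rose and 1 fell (25% past the threshold). None of these markers was at 0 in all libraries. The part of these cells in the Shh value was not tested.

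The genes whose pattern over the 6 libraries was most like that of Shh or Ptch1 were found by the smallest Euclidean distance between log2(CPM + 0.5) profiles centred on the flox/flox mean, among 11044 other protein-coding genes with a mean of at least 5 CPM. For Shh they were Nap1l5 (distance 0.75), Sim1 (0.83), Adamtsl1 (0.84), Nsg2 (0.91, chromosome 11) and Plagl1 (1.17). For Ptch1 they were Scg2 (0.35), Lhx1 (0.40, chromosome 11), Sybu (0.45), Ntn1 (0.49, chromosome 11) and Ccser1 (0.49). Scg2 went from 13.0 to 57.6 CPM and Sim1 from 0.983 to 18.2 CPM. With this centring the distance includes the difference between the groups, so genes of like fold change were favoured in advance. Those named for Shh had log2 fold changes from 3.74 to 4.75, and those for Ptch1 from 1.94 to 2.33.

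**Figure D5:**
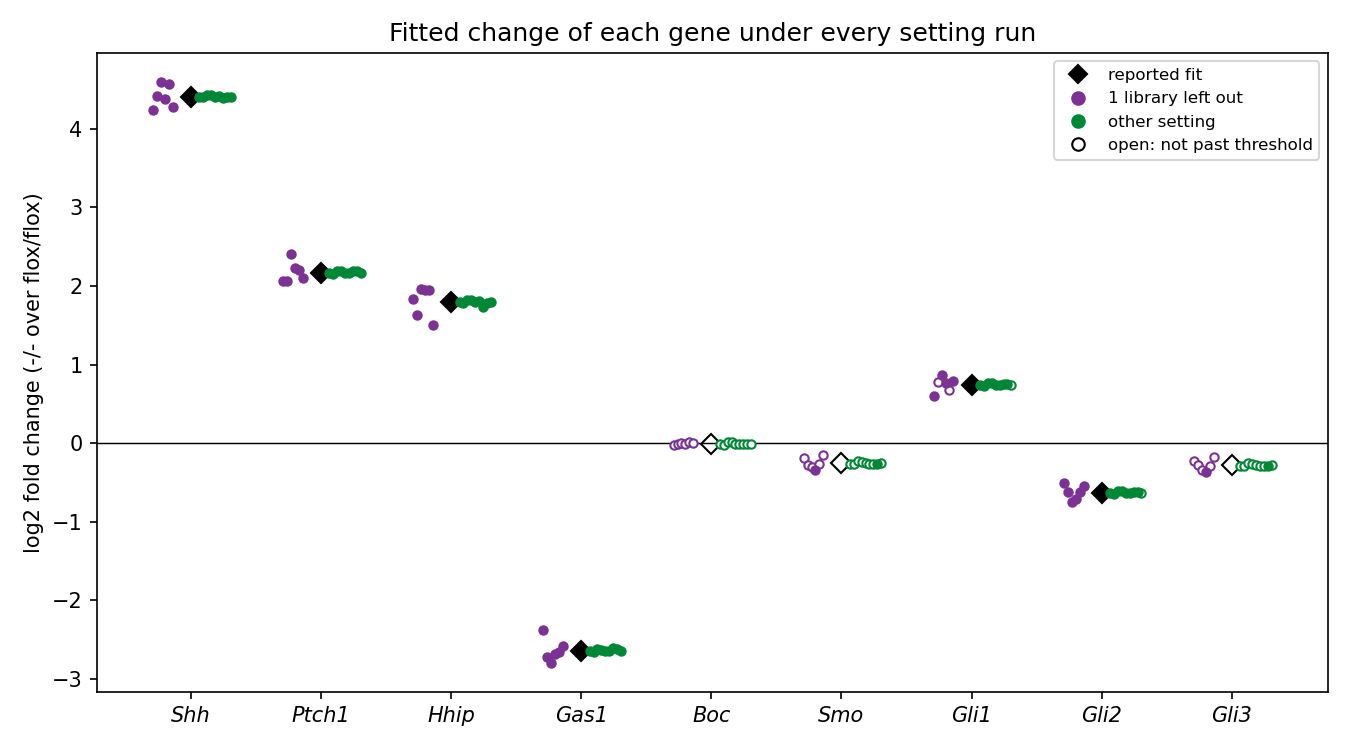
Fitted log2 fold change of each of the 9 genes in the reported fit (black diamonds), with 1 library left out (purple) and under the other settings (green), where open symbols did not pass the threshold. Shh, Ptch1, Hhip and Gas1 pass in all 15 alternatives, Gli2 in 14 and Gli1 in 12, while Smo and Gli3 pass in 2 each and Boc in 0.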

How the data were processed

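RNA of 6 cultures, 3 per genotype, was sequenced from stranded poly(A) libraries (TruSeq Stranded mRNA, per the labels' protocols). The authors deposited a table of unnormalised counts, with a row for each Ensembl identifier. BWA 0.5.9, featureCounts 1.4.6 and the build mm10 (GRCm38) are named per the submitters' processing notes. Annotation and strand setting: not given in the sources used here. The name of the deposited counts holds the term markdup, for marked duplicates, and whether these were counted is not given. Columns carry a genotype and a letter, and the labels a genotype and a number, so libraries are named by letter.

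Identifiers were named by GENCODE M21 (48144 of 48526 had a symbol). Genes were kept by filterByExpr with a minimum count of 10, applied as a CPM cutoff in at least 3 libraries, and a minimum total count of 15. They were fitted with edgeR 4.0.16 in R 4.3.3 (TMM scaling, quasi-likelihood test, 2 groups, no block). Benjamini-Hochberg adjustment was over all 20549 genes, with a threshold of 0.05. Standard errors were taken from the F statistic. RPKM used the union of a gene's exons. At the lowest depth 1 CPM stands for at least 25.1 reads, and the common biological coefficient of variation was 0.123. The fit was tested on simulated data. DESeq2 1.42.0 and limma 3.58.1 (voom) served as alternatives, with other scalings, filters, a threshold of 0.01, each library left out and a block by column letter.

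Same-lettered columns deviated together from their group means across 13845 genes (r = 0.433, 0.196 and 0.421 for A, B and C). Between columns of different letters r lay between -0.482 (flox/flox C with -/- A) and 0.101 (flox/flox B with -/- A). The labels give no pairing, and whether the cultures were paired was not tested. The reported fit therefore has no block, and the block by column letter was run only as an alternative.

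The genes and lists were chosen with earlier results of these data known. Named genes were the 9, up to 4 genes of each list in each direction, by adjusted p, list genes with too few reads, Dmrta2 and the 5 genes nearest in pattern to Shh and to Ptch1. Genes marked as added, and the antisense genes at Shh, were chosen after their values were seen. The values of 1 list gene are not reported here; it stays in the counts over lists and is not plotted.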

Additional observations from a re-analysis of the deposited data

How the results depend on the processing

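Across 15 alternatives Shh (log2 fold change 4.24 to 4.60), Ptch1 (2.06 to 2.41), Hhip (1.50 to 1.97) and Gas1 (-2.80 to -2.38) passed every time. At a threshold of 0.01, 3887 genes passed, 1992 higher and 1895 lower; of the 9 genes 1 fell, Gli1 (0.74) and Gli2 (-0.63) no longer passed, 2 genes of the Gli list rose and 1 fell, and 7 cilium genes rose and 0 fell. With the replicate block by column letter, 8529 genes passed, 4358 higher and 4171 lower, 4 of the 9 genes fell, Smo (-0.26) and Gli3 (-0.29) passed, 4 cilium genes fell, 8 targets rose and 2 fell, 9 genes of the Gli list rose and 6 fell, and 2 repressed genes rose and 4 fell. With no low-count filter 1 cilium gene fell and 2 repressed genes rose, and with limma-voom 2 repressed genes rose. The block changed no call of the other 7 of the 9 genes.

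With 1 library left out, 4717 to 6846 genes passed, 2315 to 3510 higher and 2342 to 3336 lower, and 2 to 4 of the 9 genes fell. In the Gli list 2 to 7 rose and 2 to 5 fell, 0 to 4 cilium genes fell, and 1 to 2 repressed genes rose. Gli1 lay between 0.60 and 0.86, Smo between -0.34 and -0.15, and Gli3 between -0.37 and -0.18. Boc (-0.019 to 0.010 with 1 library left out) changed sign with TMM factors from outside chromosome 11 (0.014), with no filter (0.0085), without flox/flox C (0.0003) and without -/- B (0.010). The cause was not tested. The ratios of Gli1 to Gli3, Gli1 to Gli2 and Ptch1 to Smo moved to 1.02, 1.36 and 2.45 with 1 read added to each count. Depth limits Hhip, Dhh and the flox/flox values of Shh, which rest on few reads.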
